A study of Mus musculus with 7 samples.

Results

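The genes described here encode the mitochondrial respiratory chain and ATP synthase. They were taken by symbol from a table of 19649 genes, as every gene named Nduf (with a subunit letter and number), Sdha to Sdhd, Uqcr, Cox4 to Cox8, Atp5, or mt- followed by Nd, Co, Cytb or Atp. The rule found 102 genes, of which 81 were nuclear subunit genes, 12 were subunit genes of mitochondrial DNA and 9 were pseudogenes or pseudogene-like copies. To be tested, a gene needed 10 or more normalized counts in 3 or more libraries, and 96 of the 102 passed, namely 80 nuclear genes, all 12 mitochondrial genes and 4 pseudogenes. Subunits with other symbols, such as Cyc1 of complex III and Ndufab1 of complex I, do not match the rule and are not described.

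RNA was sequenced from sorted long-term haematopoietic stem cells of mice, the rare cells that renew the blood system for life. All mice came from a Calr knock-in line crossed with MxCre, in which an interferon-induced promoter drives Cre recombinase in many cell types and not in stem cells alone. Every mouse, controls included, received pI:pC, an RNA mimic that induces interferon and so Cre, and cells were sorted 14 days after induction started, with no drug treatment. The 4 control libraries (wild-type 1 to 4) had the genotype Calr +/+ MxCre, and the 3 mutant libraries (mutant 1 to 3) were Calr fl/fl MxCre, given as Calr del52/del52. Calreticulin, the product of Calr, binds calcium and helps glycoproteins fold in the endoplasmic reticulum, and the del52 allele is a frameshift found in myeloproliferative neoplasms. Sorted cells were lineage negative, Kit and Sca-1 positive, CD48 negative and CD150 positive. Nothing in the labels says that the libraries are from different animals, so the p-values reflect the spread between libraries, which may be technical. Age is not in the labels.

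The respiratory chain passes electrons from NADH (through complex I) and succinate (through complex II) to ubiquinone, then through complex III, cytochrome c and complex IV to oxygen. Complexes I, III and IV pump protons across the inner mitochondrial membrane, and ATP synthase, or complex V, uses the gradient to make ATP. Complex II is made of nuclear subunits alone, while the other complexes also hold subunits from mitochondrial DNA, so their assembly draws on both genomes. Quiescent blood stem cells are known to rely less on oxidative phosphorylation than their dividing progeny.

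Reads counted per library ranged from 21325340 to 28710304. The control libraries were set in a first pair, 1 and 2, and a second, 3 and 4, by their titles and by earlier results of these data. The pairs differed in level, so each comparison is given against all 4 controls and against each pair. In deviations from gene means, the slope per doubling of exonic length was 0.24 and 0.25 in wild-type 3 and 4 and between -0.17 and 0.01 in the other 5 libraries, so longer genes were relatively higher in that pair. Wild-type 3 and 4 and mutant 1 and 2 carry titles of one number series, and the labels do not say if that series is a batch. Calr itself ranged from 15922 to 18606 normalized counts in the controls and from 14239 to 15724 in the mutants, and a gene count cannot check this deletion. Kit, a marker of the sort, was highest in wild-type 3 and 4, with 26511 and 25305 normalized counts, and lay between 2976 and 6677 in the other 5 libraries. The summed normalized count of 10 stem cell markers ranged from 37931 to 74135 in the controls and from 37104 to 43400 in the mutants, with none at 0, and that of 3 genes low on such cells from 8296 to 12088 and from 8234 to 12795. The summed normalized count of 12 neutrophil and monocyte markers ranged from 58575 to 102443 in the controls and from 23016 to 68718 in the mutants, with no marker at 0. Of the 12, 10 had a lower mean log2 level in the mutants (median difference -2.11, 0 called by limma). Against wild-type 1 and 2 the median was -1.82, also with 10 lower and 0 called. In each of these 2 comparisons, 10 of the 12 had an unadjusted limma p under 0.05, beside 8.51% and 11.8% of all genes. Against wild-type 3 and 4 the median was -2.35, with 8 called lower and 1 higher, beside 24.7% and 22.1% of all genes. The median deviation of the 12 from their gene means was 0.44 in mutant 1, -1.93 in mutant 2 and -2.03 in mutant 3. The sum of 10 erythroid markers ranged from 35425 to 57299 and from 56728 to 71206, with at most 1 marker at 0. Car2 alone made up most of that sum, and 7 of the 10 had a lower mean log2 level in the mutants (median difference -0.41). The sum ranged for 6 megakaryocyte markers from 8720 to 20197 in the controls and from 6110 to 12568 in the mutants, with none at 0. All 6 had a lower mean log2 level in the mutants than in wild-type 1 and 2 (median -0.89, 0 called). Against wild-type 3 and 4, 4 were higher and 2 lower (median 0.98). For 5 B cell markers the sum ranged from 946 to 1676 and from 1372 to 1927 (at most 1 at 0), and for 3 T cell markers from 433 to 557 and from 559 to 599 (none at 0). Single genes did not all follow these sums. Of 4 tested B cell markers, 2 were higher and 2 lower in the mutants (median difference -0.46). Of 2 tested T cell markers, 1 was higher and 1 lower (median -0.07). The part of these lists, of the length slope and of the title series in the results below was not tested, beyond the fits named with them. In bulk samples, a change in the makeup of the sorted cells and a change of RNA per cell cannot be told apart.

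Subunit genes of all 5 complexes were higher in the mutants than in wild-type 3 and 4, but nuclear subunit genes were at about the level of wild-type 1 and 2. In the comparison of 3 mutant with 4 control libraries, limma called 0 of the 96 members, beside 0% of the 16047 genes tested. edgeR and DESeq2 on the recovered reads also called 0 members. With title series as a covariate, limma called 79 members, all higher in the mutants, beside 22.4% of all genes. That fit set wild-type 1, wild-type 2 and mutant 3 together as its other level. The title of mutant 3 shares no number series with those of wild-type 1 and 2. Within the shared title series alone limma called 84, beside 37.5% of all genes, and without wild-type 1 and 2 it called 88, beside 42.6%, again all higher. At an unadjusted p under 0.05 there were 6 members (6.25%), namely Cox7a2l, mt-Nd4, mt-Cytb, mt-Co1, mt-Co3 and mt-Atp6, beside 8.51% of all genes, and all 6 were higher in the mutants, beside 4.09% of all genes. Those 6 comprised 5 of the 12 mitochondrial genes and 1 of the 80 nuclear genes. The median log2 difference was 0.55 over the 80 nuclear genes, 0.90 over the 12 mitochondrial genes and 0.00 over all genes tested. Leaving out 1 library at a time, the nuclear median lay between 0.33 (without mutant 3 or wild-type 3) and 0.77 (without wild-type 1).

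Against wild-type 3 and 4, 89 of the 96 members were called higher (92.7%) and 0 lower, beside 22.1% of all genes called higher and 24.7% called lower. The 89 comprised 76 of 80 nuclear genes, 12 of 12 mitochondrial genes and the pseudogene Atp5l2-ps. Median log2 differences were 1.15 for nuclear complex I (36 genes), 0.48 for complex II (4 genes), 1.19 for complex III (8 genes), 1.23 for complex IV (15 genes) and 1.20 for complex V (17 genes), while the median of all genes was -0.00. The members not called were Ndufs1, Sdha, Sdhc and Cox7a1 among nuclear subunits, and the pseudogenes Ndufs5-ps, Cox6c2 and Atp5pb-ps.

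Against wild-type 1 and 2, limma called 0 members, beside 0.312% of all genes, and edgeR on recovered reads also called 0. DESeq2 called mt-Co1, 1 of the 96 members, beside 2.41% of all genes. At an unadjusted p under 0.05, limma gave mt-Co1 and mt-Nd4 (2.08% of members), beside 11.8% of all genes. The nuclear medians by complex were -0.06, -0.14, -0.09, -0.07 and -0.10 for complexes I to V, and 65 of the 80 nuclear genes had a lower mean in the mutants. The sign of the nuclear median rested on single libraries: it was -0.08 over all libraries, 0.10 without mutant 2 and -0.26 without mutant 3. The mitochondrial median was 0.32, 0.58 without mutant 2 and 0.11 without mutant 3, and 11 of 12 mitochondrial genes had a higher mean in the mutants.

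The difference between both comparisons was itself tested as wild-type 3 and 4 minus wild-type 1 and 2. In it, 88 of 96 members were called lower (91.7%) and 0 higher, beside 20.9% of all genes called lower. The median was -1.21 for nuclear and -1.19 for mitochondrial genes, and 0.01 for all genes. Because the pairs were set in part by earlier results of these data, these calls describe the split and are no independent test of it.

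**Figure D1:**
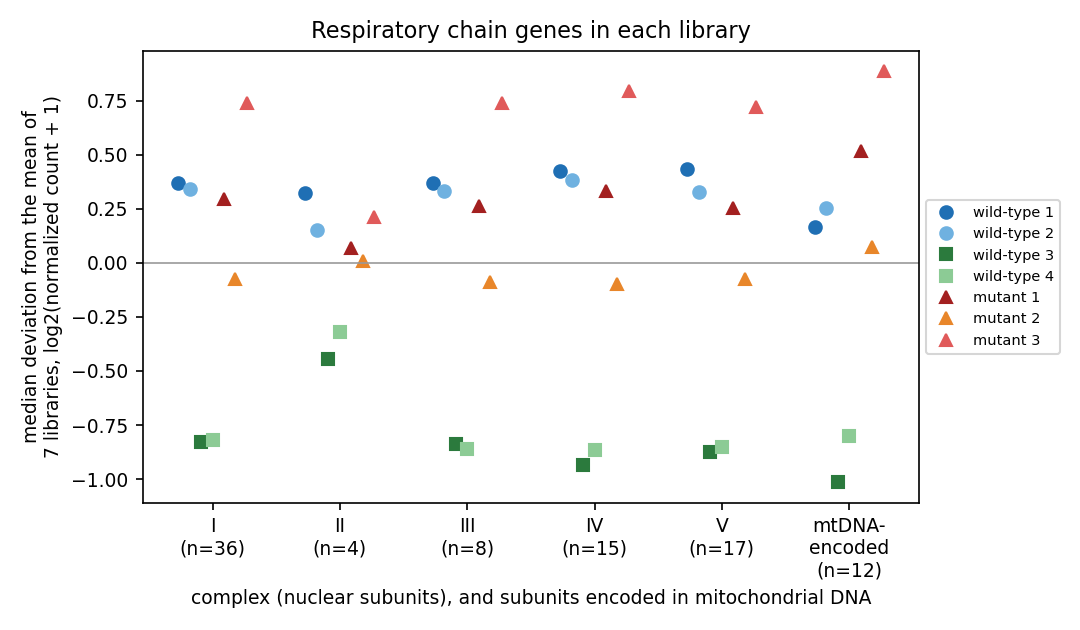
Median deviation from the gene means over the 7 libraries, in log2(normalized count + 1), for nuclear subunits of complexes I to V and for mitochondrially encoded subunits; each point is 1 library. Wild-type 3 and 4 are lowest in every group, and mutant 3 is highest in every group but complex II.

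Among the mutants the level was uneven. The median deviation of nuclear subunits was 0.29 in mutant 1, -0.07 in mutant 2 and 0.74 in mutant 3. It was 0.39 and 0.34 for the first control pair and -0.85 and -0.82 for the other. Mutant 3 was the highest of the 7 libraries for 69 of the 80 nuclear genes, wild-type 1 for 9 and mutant 2 for 2. Wild-type 3 was the lowest for 53 and wild-type 4 for 24.

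**Figure D2:**
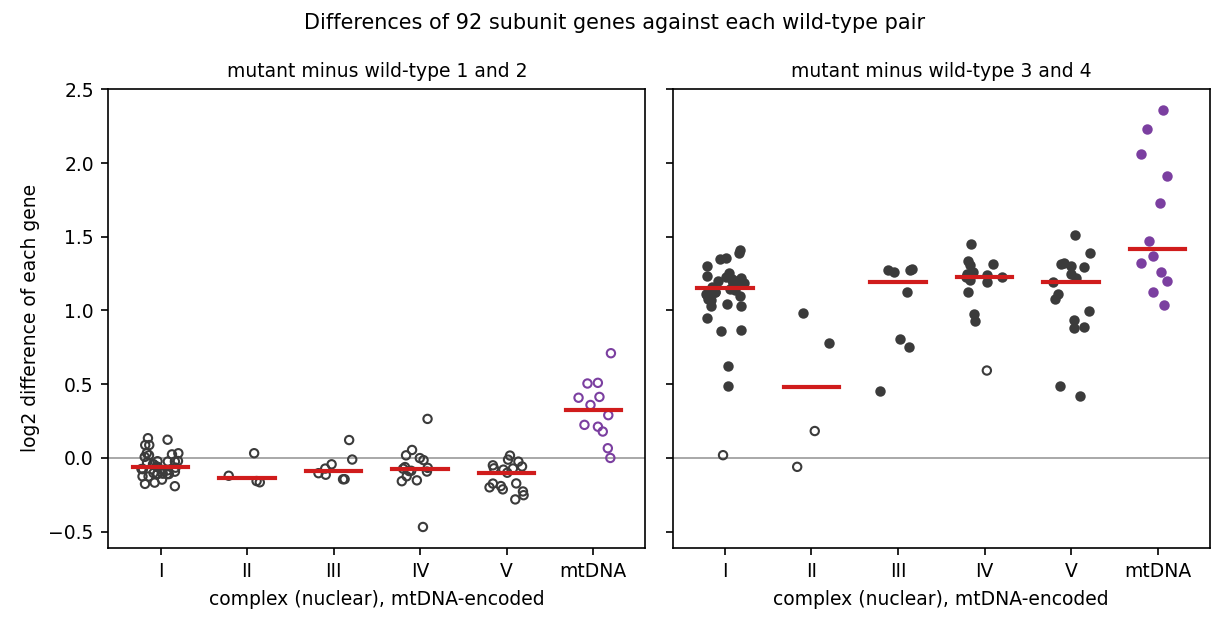
Log2 difference of each of the 92 subunit genes tested, pseudogenes left out, mutant minus wild-type 1 and 2 (left) and minus wild-type 3 and 4 (right), by complex; filled points passed an adjusted p of 0.05 by limma and red lines are medians. No point is filled on the left, and 88 are filled on the right.

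Mitochondrial DNA encodes the membrane core of complex I (mt-Nd genes), cytochrome b of complex III (mt-Cytb), the catalytic core of complex IV (mt-Co1 to mt-Co3) and the a and A6L subunits of complex V (mt-Atp6 and mt-Atp8). Of these 13 genes, mt-Nd4l was not analysed here. mt-Co1, at chrM:5328-6872 of GRCm38 and coding for the subunit that holds the heme and copper where oxygen is reduced, had the smallest p of all members in the comparison with 4 controls. Its normalized counts were 28272, 29113, 20018 and 23042 in the controls, in the order 1 to 4, and 53602, 34298 and 56230 in the mutants, in the order 1 to 3, the order kept for every gene. Every mutant library was above every control library. The control mean was 25111 ± 4329 (SD, n = 4), the mutant mean 48043 ± 11976 (SD, n = 3), and the log2 difference was 0.92 (SE 0.23). By limma the unadjusted p was 0.0041 and the adjusted p 0.538, so the gene did not pass. Against wild-type 1 and 2 the difference was 0.71 (SE 0.21, limma adjusted p 0.217), and DESeq2 gave an adjusted p of 0.0303. Without mutant 2, limma called mt-Co1 (0.94, adjusted p 0.00687) and mt-Nd4 (0.74, adjusted p 0.0122), 2 members, beside 3.71% of all genes. Against wild-type 3 and 4 mt-Co1 rose by 1.13 (SE 0.21, adjusted p 0.00231). It was the one mitochondrial gene not called between the control pairs, at -0.42 (SE 0.23, adjusted p 0.172).

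mt-Cytb, the electron-carrying cytochrome of complex III, had 41750, 41897, 19543 and 23563 counts in the controls and 54733, 40112 and 70292 in the mutants. Mutant 2 lay below wild-type 1 and 2, so the groups overlapped. The log2 difference was 0.84 (SE 0.33) against all controls, 0.36 against wild-type 1 and 2 and 1.32 against wild-type 3 and 4, and the last alone was called.

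Among mt-Nd genes, mt-Nd4 had 6948, 7598, 4303 and 4674 counts in the controls and 10978, 7436 and 13426 in the mutants. Mutant 2 lay between wild-type 1 and 2, and the other mutants were above all controls. Its difference was 0.85 (SE 0.28) against all controls, 0.50 (SE 0.22) against wild-type 1 and 2 and 1.20 (SE 0.22) against wild-type 3 and 4. mt-Nd1, which lies at the ubiquinone end of complex I, had 18990, 17700, 7271 and 8780 counts in the controls and 18103, 15499 and 25173 in the mutants. Mutants 1 and 2 lay within or below the range of wild-type 1 and 2, the difference from that pair was 0.07 (SE 0.20), and that from wild-type 3 and 4 was 1.26. mt-Nd5 had 14096, 13895, 7401 and 8591 counts against 16896, 12953 and 19960, with differences of 0.22 from wild-type 1 and 2 and 1.04 from wild-type 3 and 4. mt-Nd2 had 6669, 7194, 2913 and 3317 counts against 8067, 5855 and 10927, with differences of 0.21 and 1.37. mt-Nd6, the one subunit gene on the other strand, had 3450, 4120, 1459 and 1893 counts against 4685, 3026 and 6909, with differences of 0.29 and 1.47. Without mutant 3, the differences from wild-type 1 and 2 turned to -0.13 for mt-Nd1, -0.011 for mt-Nd2 and -0.0019 for mt-Nd6. In mt-Nd5, mt-Nd2 and mt-Nd6, mutant 2 was below wild-type 1 and 2, while mutants 1 and 3 were above all controls. The libraries were unstranded, so reads where mt-Nd5 and mt-Nd6 overlap cannot be told apart.

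**Figure D3:**
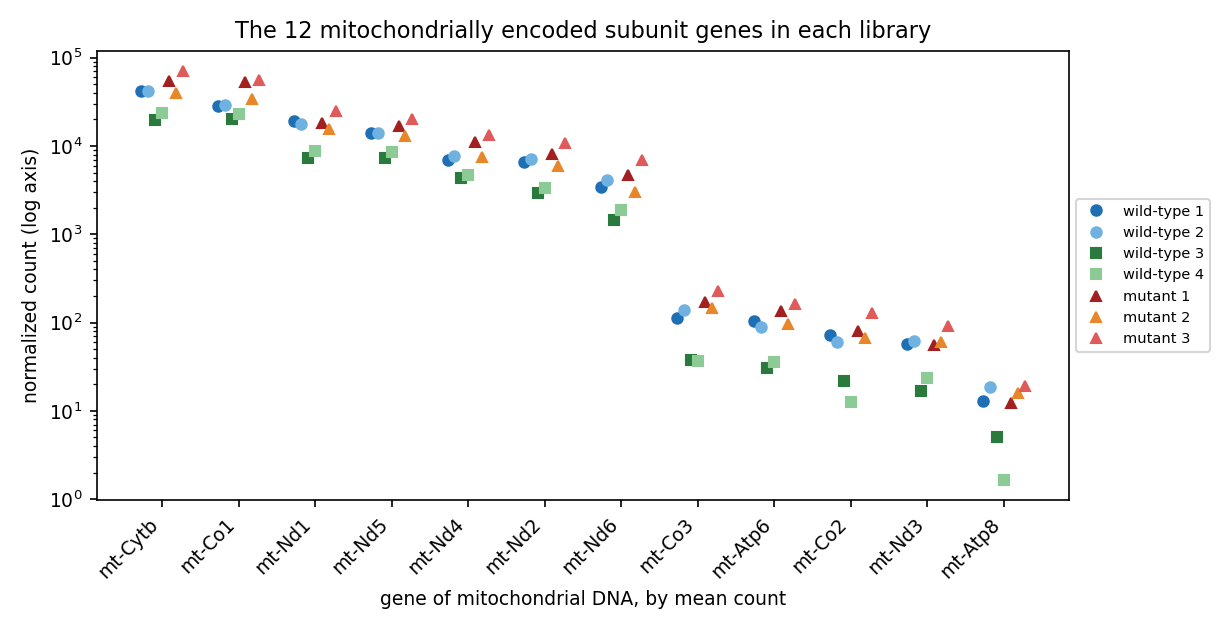
Normalized counts (log axis) of the 12 mitochondrially encoded subunit genes in each library, ordered by mean count. The 7 genes on the left average at least 1000 counts and the 5 on the right fewer; of these 12, mt-Co1 and mt-Co3 are the genes whose 3 mutant libraries all lie above all 4 controls.

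A lower set of 5 mitochondrial genes averaged under 1000 counts: mt-Co2, mt-Co3, mt-Atp6, mt-Atp8 and mt-Nd3. mt-Co3, the third core subunit of complex IV, had 114, 137, 37.5 and 36.6 counts in the controls and 173, 145 and 226 in the mutants. The groups did not overlap, the log2 difference was 1.37 (SE 0.52) against all controls and 0.51 against wild-type 1 and 2, neither called, and mt-Co3 rose by 2.23 (SE 0.28) against wild-type 3 and 4. Of the 96 tested members, mt-Co1 and mt-Co3 (2.08%) had every mutant library above every control, beside 5.23% of all genes. Of those tested, the same 2 genes were above both libraries of wild-type 1 and 2 in every mutant, beside 13.9% of all genes. mt-Atp6, which forms the proton path of ATP synthase, had 105, 88.3, 30.9 and 35.8 counts against 135, 95.5 and 163. Its log2 difference was 1.16 (SE 0.48) against all controls, which did not pass, and 1.92 against wild-type 3 and 4, which did. mt-Co2, which takes electrons from cytochrome c, had 73.2, 60.3, 21.7 and 12.5 counts against 80.8, 67.0 and 129, and mt-Nd3 had 57.9, 61.3, 16.7 and 23.3 against 56.1, 59.8 and 91.8. Against wild-type 3 and 4, mt-Co2 rose by 2.36, mt-Nd3 by 1.73 and mt-Atp8 by 2.06. mt-Atp8 had 13.1, 18.7, 5.0 and 1.66 counts against 12.3, 16.1 and 19.3.

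The same 5 genes were also low per length, between 2.33 FPKM (mt-Atp8) and 5.98 FPKM (mt-Co3), while the other 7 lay between 218 FPKM (mt-Nd4) and 1402 FPKM (mt-Cytb). Nuclear DNA holds copies of mitochondrial genes, and a block of 7 annotated unprocessed pseudogenes lies at chr1:24611535-24616197 on the minus strand of GRCm38. Of the stretches of 50 bases in mt-Co2, 100% also occur in another annotated gene, and the share was 99.9% for mt-Co3, 99.5% for mt-Atp6, 98.0% for mt-Nd3, 62.2% for mt-Nd4 and 51.1% for mt-Co1. It was 8.19% for mt-Nd2, 7.61% for mt-Nd5 and 0 for mt-Cytb, mt-Nd1, mt-Nd6 and mt-Atp8. Only annotated transcripts were searched, so a share of 0 does not exclude a nuclear copy, for instance in the gaps between the pseudogenes of that block. Gm28661, Gm10925 and Gm28437 were identical to mt-Co2, mt-Atp6 and mt-Co3 over 681, 678 and 783 bases, and Gm28438 differed from mt-Nd3 at 1 of 345 bases. The start of this last copy is shown beside its mitochondrial original, because reads from such stretches cannot be assigned to 1 of the pair. The mitochondrial sequence is chrM:9459-9578, plus strand, and the copy is chr1:24613000-24613119, minus strand, both from the GRCm38 genome, with capitals marking the base that differs.
mt-Nd3: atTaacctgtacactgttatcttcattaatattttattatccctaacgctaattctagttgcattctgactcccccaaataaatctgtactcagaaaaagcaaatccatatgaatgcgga
Gm28438: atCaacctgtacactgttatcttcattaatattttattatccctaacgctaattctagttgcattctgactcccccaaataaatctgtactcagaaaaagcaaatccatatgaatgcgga
Within these 120 bases the pair differ once, at the third base. Gm28437 itself had 111, 95.6, 34.2 and 25.8 normalized counts in the controls and 137, 114 and 176 in the mutants, below mt-Co3 in every library. The low counts of mt-Co2, mt-Co3, mt-Atp6 and mt-Nd3 are therefore of uncertain origin, and the sources do not state how reads with several matches were counted. The origin of reads from the shared stretches of mt-Nd4 and mt-Co1 is uncertain for the same reason. For mt-Atp8, copies outside annotated transcripts were not looked for.

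Mitochondrial subunit reads were next set against nuclear subunit reads within each library, a ratio that no scaling between libraries can move. Per 100 nuclear subunit reads, the controls had 22.0, 23.8, 23.9 and 27.4 mitochondrial subunit reads, and the mutants had 34.6, 28.6 and 32.5. Every mutant was above every control, and wild-type 3 and 4 were above wild-type 1 and 2, with 23.8 and 23.9 reads for the nearest libraries of the pairs. The control mean was 24.3 ± 2.25 (SD, n = 4) and the mutant mean 31.9 ± 3.03 (SD, n = 3). Without mt-Co1 the ratio was 16.8, 18.1, 16.3 and 18.9 in the controls and 23.5, 20.4 and 23.5 in the mutants, again without overlap. A ratio over these genes gets no p, since the genes were chosen with results known. Measured as medians of gene deviations, mitochondrial minus nuclear was -0.23, -0.09, -0.16 and 0.02 in the controls and 0.23, 0.15 and 0.15 in the mutants.

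**Figure D4:**
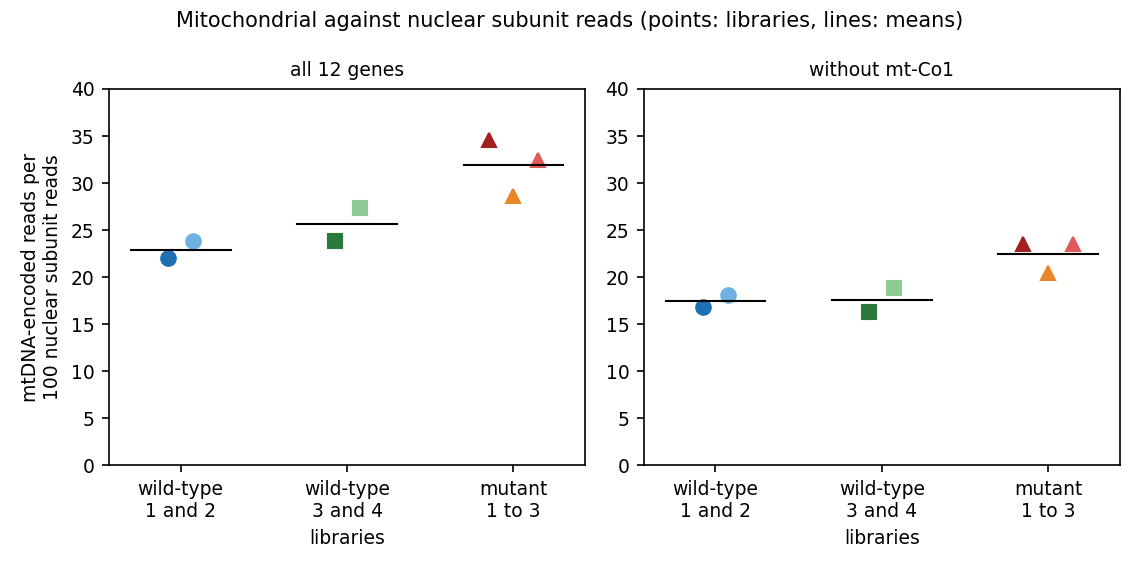
Reads of mitochondrially encoded subunits per 100 reads of nuclear subunits in each library, for all 12 genes (left) and without mt-Co1 (right); points are libraries and lines are group means. The mutants lie between 28.6 and 34.6 on the left, above the 4 controls at 22.0 to 27.4.

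As shares of all reads, nuclear subunits took 2.22%, 2.14%, 1.10% and 1.14% in the controls and 2.00%, 1.73% and 2.43% in the mutants. Mitochondrial subunits took 0.489%, 0.510%, 0.263% and 0.312% in the controls and 0.691%, 0.494% and 0.790% in the mutants. Counting error was small, with a 95% Wilson interval of 0.492% to 0.497% for mutant 2, which alone among the mutants lay within the control range. The intervals cover counting error only. The mix of mitochondrial genes also differed between the control pairs: mt-Co1 made up 23.5% and 23.9% of mitochondrial subunit reads in the first pair and 31.8% and 31.2% in the other. Its share was 32.0%, 28.7% and 27.6% in the mutants, at the level of wild-type 3 and 4 or between the pairs.

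Complex I takes electrons from NADH on its matrix arm, whose 7 nuclear core subunits carry the flavin and the iron-sulfur clusters, and 29 nuclear accessory subunits surround the core. Against wild-type 3 and 4, 6 of the 7 core genes and all 29 accessory genes were called higher, with medians of 0.86 and 1.19. All 7 core genes had a lower mean in the mutants than in wild-type 1 and 2, with log2 differences between -0.18 and -0.03 and none called. Ndufv2, which carries an iron-sulfur cluster beside the flavin, had 8176, 7588, 3292 and 3384 counts in the controls and 6958, 5685 and 9504 in the mutants. Mutant 3 was above all controls, mutants 1 and 2 lay between the control pairs, and Ndufv2 rose by 1.11 (SE 0.19) against wild-type 3 and 4. Ndufs7 and Ndufs8, the last clusters before ubiquinone, behaved likewise, with 6714, 6844, 2983 and 3050 against 6292, 5048 and 8945 counts for Ndufs7. The counts of Ndufs8 were 6031, 6035, 2855 and 2657 against 5770, 4590 and 7774. Ndufs7 rose by 1.12 and Ndufs8 by 1.10 against wild-type 3 and 4. Ndufs3 had 2868, 2675, 1449 and 1440 against 2440, 2296 and 3244 counts and rose by 0.86. Ndufv1, the flavin subunit, had 6154, 5898, 3829 and 3782 against 5068, 5046 and 5926 counts and rose by 0.49. In Ndufv1, no mutant exceeded wild-type 1.

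Ndufs1, the largest core subunit of the arm, was the exception. Its counts were 3809, 3359, 3443 and 3114 in the controls and 3240, 3830 and 2940 in the mutants, so all groups overlapped. It differed from wild-type 3 and 4 by 0.02 (SE 0.15), which was -0.01 under TMM scaling and -0.03 under scaling to the library total without mitochondrial genes, and it was -0.085 without mutant 2 and -0.054 without wild-type 4. The control pairs differed by -0.13 (adjusted p 0.559). Of the accessory genes, Ndufa6 had the highest difference from all controls among nuclear members, 0.74 (SE 0.40), with 3136, 3204, 1315 and 1394 against 3588, 2390 and 4797 counts. Ndufa5 had 2441, 2465, 858 and 910 against 2412, 1576 and 3417 counts and rose by 1.41 against wild-type 3 and 4. Ndufb1-ps, which the annotation lists as a non-coding gene but which carries the symbol of a small complex I subunit, lay nearest the median of the complex with 3477, 3272, 1409 and 1350 against 3058, 2353 and 4310 counts. In all 3 genes mutant 3 was the highest library and wild-type 3 and 4 the lowest.

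Complex II, succinate dehydrogenase, is also an enzyme of the tricarboxylic acid cycle and the one complex with no mitochondrially encoded subunit. Its 4 genes split evenly: Sdhb and Sdhd were called higher against wild-type 3 and 4, and Sdha and Sdhc were not. Sdhb, the iron-sulfur subunit, had 7497, 7030, 3304 and 3231 counts in the controls and 6107, 5264 and 8438 in the mutants. Wild-type 3 and 4 were below every other library, and Sdhb rose by 0.99 (SE 0.19) against them. Sdhd, a membrane anchor, had 9633, 8582, 4708 and 4809 counts against 8032, 7173 and 9409 and rose by 0.78 (SE 0.15). Sdha, the flavin subunit that oxidises succinate, had 13039, 11204, 12704 and 13072 against 11723, 14044 and 11457 counts. No pair or genotype stood apart, with differences of -0.06 (SE 0.15) from wild-type 3 and 4 and 0.09 (SE 0.16) between the control pairs, the latter -0.017 without wild-type 2. Sdhc, the other anchor, had 4306, 3806, 3049 and 3529 against 3640, 3739 and 3789 counts. All mutants lay between the control pairs, and Sdhc differed from wild-type 3 and 4 by 0.18 (SE 0.13, adjusted p 0.281).

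The RefSeq promoters (GRCm38.p6) of Sdhb and Sdha are printed because these genes of 1 enzyme differed in whether they moved, and that of Cox6a1 because it lay at the median of complex IV. Each runs from 250 bases before to 50 bases after the start: Sdhb at chr4:140961021-140961320 (plus strand), Sdha at chr13:74350191-74350490 (minus strand) and Cox6a1 at chr5:115348909-115349208 (minus strand). Capitals mark matches, on either strand, to a motif of NRF1 (GCGCATGC), of ETS factors including GABPA (CCGGAAG), of YY1 (AAGATGGC), of Sp factors (GGGCGG) or of NF-Y (CCAAT). NRF1 and GABPA, also called NRF2, are factors known for binding promoters of respiratory chain genes.
Sdhb: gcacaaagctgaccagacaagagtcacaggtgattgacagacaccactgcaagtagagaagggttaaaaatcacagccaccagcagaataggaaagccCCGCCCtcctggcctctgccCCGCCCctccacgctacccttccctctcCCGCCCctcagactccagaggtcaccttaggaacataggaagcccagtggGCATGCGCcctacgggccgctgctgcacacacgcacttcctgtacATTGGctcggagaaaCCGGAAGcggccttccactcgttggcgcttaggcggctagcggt
Sdha: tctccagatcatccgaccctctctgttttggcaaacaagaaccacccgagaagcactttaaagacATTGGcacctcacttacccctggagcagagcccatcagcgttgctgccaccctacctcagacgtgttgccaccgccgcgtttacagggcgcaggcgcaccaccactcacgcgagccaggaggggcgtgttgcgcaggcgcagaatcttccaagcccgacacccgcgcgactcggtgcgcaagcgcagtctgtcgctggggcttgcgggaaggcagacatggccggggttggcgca
Cox6a1: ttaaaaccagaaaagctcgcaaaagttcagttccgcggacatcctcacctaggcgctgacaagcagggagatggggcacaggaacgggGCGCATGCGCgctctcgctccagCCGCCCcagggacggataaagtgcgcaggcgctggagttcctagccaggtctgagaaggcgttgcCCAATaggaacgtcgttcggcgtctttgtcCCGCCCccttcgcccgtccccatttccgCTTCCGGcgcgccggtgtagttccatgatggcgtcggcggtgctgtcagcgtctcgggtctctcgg
Sdhb and Cox6a1 each held 4 of the 5 motifs, all but that of YY1, and Sdha held that of NF-Y alone. These 3 do not stand for the list. The promoters of Cox5b, Ndufv1 and Uqcrfs1 held 0 of the 5 motifs, and these genes were also called higher against wild-type 3 and 4. A link between motifs and differences was not tested. Of the 81 nuclear subunit genes, 68 had a promoter in the RefSeq table. The NRF1 motif was in the promoters of 10 of the 68 genes (14.7%) and 3.05% of all 27025 genes with promoters. No motif contains another on either strand, though ends can overlap. The ETS motif was in 17 (25.0%, beside 9.93%), the YY1 motif in 10 (14.7%, beside 3.19%), the Sp motif in 28 (41.2%, beside 38.2%) and the NF-Y motif in 30 (44.1%, beside 41.1%). These are matches of letters and not measured binding.

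Complex III passes electrons from ubiquinol to cytochrome c. All 8 of its nuclear genes rose against wild-type 3 and 4, by 0.45 to 1.28. Uqcrfs1, the Rieske iron-sulfur protein, had 4757, 4784, 2476 and 2945 counts in the controls and 4410, 4387 and 5482 in the mutants and rose by 0.81 (SE 0.15). Of its core proteins, Uqcrc1 had 15886, 14820, 10062 and 10207 against 13066, 13825 and 14790 counts, and Uqcrc2 had 6522, 5921, 3554 and 3453 against 5737, 5681 and 6333. The mutants were above wild-type 3 and 4 in all 3 genes, and for Uqcrc1 every mutant was below wild-type 1 and 2. Uqcrc1 rose by 0.45 and Uqcrc2 by 0.75 against wild-type 3 and 4. Uqcrh, the hinge protein at the cytochrome c side, had 4958, 5003, 2268 and 2189 against 5609, 3836 and 7388 counts, and its difference from all controls of 0.70 (SE 0.38) was the third largest among nuclear members and did not pass. The small subunit Uqcr10 lay nearest the median of the complex, with 6221, 5816, 2228 and 2259 against 5384, 4078 and 7339 counts.

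Complex IV, cytochrome c oxidase, reduces oxygen to water. Of its 15 tested nuclear genes, 14 rose against wild-type 3 and 4. Cox4i1, the general form of the subunit through which ATP regulates the enzyme, had 13996, 13775, 6225 and 6388 counts in the controls and 14151, 11238 and 18827 in the mutants and rose by 1.19 (SE 0.19). Cox5a had 6474, 5451, 2362 and 2511 against 4674, 4237 and 7621 counts and rose by 1.13, and Cox5b had 6277, 5847, 2428 and 2504 against 5386, 4408 and 7722 and rose by 1.20. In these 3 genes mutant 3 was the highest library and mutants 1 and 2 lay near or below wild-type 1 and 2. Cox6a1 had 10305, 9976, 3803 and 4218 against 8957, 7054 and 13698 counts and rose by 1.25. Ndufa4, first assigned to complex I and now placed in complex IV, had 10255, 9833, 3797 and 3741 against 9144, 6411 and 12585 counts and rose by 1.26.

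Cox7a2l, also known as SCAF1, joins complexes III and IV into a supercomplex and is an assembly factor more than a subunit. Its counts were 2481, 2401, 1497 and 1587 in the controls and 3007, 2331 and 3597 in the mutants. Mutants 1 and 3 were above all controls and mutant 2 just below wild-type 1 and 2. It was the 1 nuclear member with an unadjusted p under 0.05 against all controls, with a log2 difference of 0.60 (SE 0.25, limma adjusted p 0.538). Its difference from wild-type 1 and 2, 0.26 (SE 0.18), was the highest of any nuclear member and did not pass, and it rose by 0.93 (SE 0.18) against wild-type 3 and 4. Its control pairs differed by -0.66, less than the nuclear median of -1.21. Its close relative Cox7a2 had 4920, 5003, 1890 and 2005 against 4532, 3423 and 6072 counts and rose by 1.22 against wild-type 3 and 4. The heart and muscle form Cox7a1 was low, with 25.1, 13.5, 8.34 and 8.32 against 16.8, 6.25 and 20.5 counts. Its difference from wild-type 1 and 2 was -0.47 (SE 0.61), the largest of the nuclear members in size, and did not pass. Without mutant 2 it was 0.0095.

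Several subunits of complex IV have tissue forms, and their shares within a library do not depend on scaling between libraries. The lung and hypoxia form Cox4i2 had 276, 226, 66.7 and 127 against 219, 225 and 330 counts, a difference of 0.73 (SE 0.48) from all controls and 1.45 from wild-type 3 and 4, and the last was called. In FPKM, Cox4i2 made up 2.02%, 1.64%, 1.08% and 1.97% of both Cox4 genes in the controls and 1.54%, 2.04% and 1.79% in the mutants. The testis form Cox6b2 had 1300, 1239, 672 and 617 against 1393, 935 and 1566 counts and rose by 0.98 against wild-type 3 and 4, and Cox6b1 had 10668, 9936, 3810 and 4020 against 9530, 7256 and 13156 and rose by 1.31. Cox6b2 made up 12.6% ± 1.72 (SD, n = 4) of Cox6b FPKM in the controls and 12.1% ± 1.21 (SD, n = 3) in the mutants. The share of each form thus overlapped between the genotypes, and the general form was the main one in every library. Cox8a, the general form of the smallest subunit, had 11181, 11172, 4408 and 4656 against 10660, 7830 and 14691 counts and rose by 1.24. Cox6a2, Cox8b, Cox8c and Ndufa4l2 were not analysed here. Cox7b2, a testis form, had at most 3.33 counts in the controls and 3.37, 8.93 and 13.3 in the mutants, and was too low to test.

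Complex V turns a ring of c subunits with the proton flow and makes ATP in its F1 head. All 17 nuclear genes were called higher against wild-type 3 and 4, and 16 of them had a lower mean in the mutants than in wild-type 1 and 2. Atp5b, the catalytic beta subunit, had 60639, 51629, 34361 and 35087 counts in the controls and 44475, 50198 and 51793 in the mutants, and Atp5a1, the alpha subunit, had 40669, 35655, 26637 and 27282 against 34536, 36143 and 37484. In both genes the mutants were above wild-type 3 and 4 and below wild-type 1. Atp5b rose by 0.49 and Atp5a1 by 0.42 against wild-type 3 and 4, with adjusted p of 0.027 and 0.0359, but the signs turned under quantile normalization, to -0.12 and -0.01. Atp5c1, the rotating gamma subunit, had 14390, 12662, 6846 and 7124 against 13207, 11399 and 15939 counts and rose by 0.94.

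The c subunit is encoded by 3 genes that give the same mature protein. Atp5g1 had 6366, 6048, 2098 and 2085 against 4982, 3772 and 7515 counts, Atp5g2 had 1618, 1479, 571 and 761 against 1513, 1240 and 2038, and Atp5g3 had 15816, 14093, 5967 and 6324 against 13702, 11463 and 18774. They rose by 1.32, 1.25 and 1.22 against wild-type 3 and 4. Atp5g3 made up 63.0% ± 1.81 (SD, n = 4) of their FPKM in the controls and 63.5% ± 1.80 (SD, n = 3) in the mutants, and Atp5g1 made up 27.2% ± 2.48 and 26.3% ± 2.07. The mix of c subunit genes therefore differed by less than the spread between libraries. The small membrane subunits had the largest differences between the control pairs: Atp5k, which helps ATP synthase form dimers, had 2897, 2863, 848 and 872 against 2547, 1691 and 3455 counts, and Atp5mpl had 4352, 3998, 1295 and 1325 against 3671, 2339 and 4704. The pairs differed by -1.74 (SE 0.27) in Atp5k, -1.67 (SE 0.26) in Atp5mpl and -1.57 (SE 0.26) in Atp5g1, all called. Atp5k also had the highest difference of any nuclear member from wild-type 3 and 4, 1.52. Atp5mpl had a difference of -0.28 (SE 0.24) from wild-type 1 and 2, the second largest in size among nuclear members, which did not pass.

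Nuclear members with short transcripts differed most between the control pairs, and those with long ones least. The main transcript of a gene was the one of highest mean FPKM, of any annotated type. For some genes, among them Ndufa10 and Ndufa3, that transcript was not annotated as protein-coding. Over the 79 nuclear genes with an FPKM transcript, Spearman's rho between the length of the main transcript and the difference of the pairs was 0.72. With exonic length it was 0.46 over the 80 nuclear genes and 0.51 over all genes tested that had a length. The median exonic length was 1578 bases for these nuclear genes and 3780 bases for all genes. The points share their libraries and genes are not independent replicates, so no p is given. Sdha and Ndufs1, with main transcripts of 2900 and 2661 bases, differed between the pairs by 0.09 and -0.13, neither called, while Atp5k and Atp5mpl, at 371 and 366 bases, had the largest differences. Sdhc departed from this order, with a main transcript of 815 bases and a pair difference of -0.30. Between the length of the main transcript and the mutants' difference from wild-type 1 and 2, rho was 0.14 (-0.11 with exonic length). With the length slope of each library as a covariate, the mutants differed from all controls by a median of -0.05 over nuclear and 0.31 over mitochondrial genes.

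**Figure D5:**
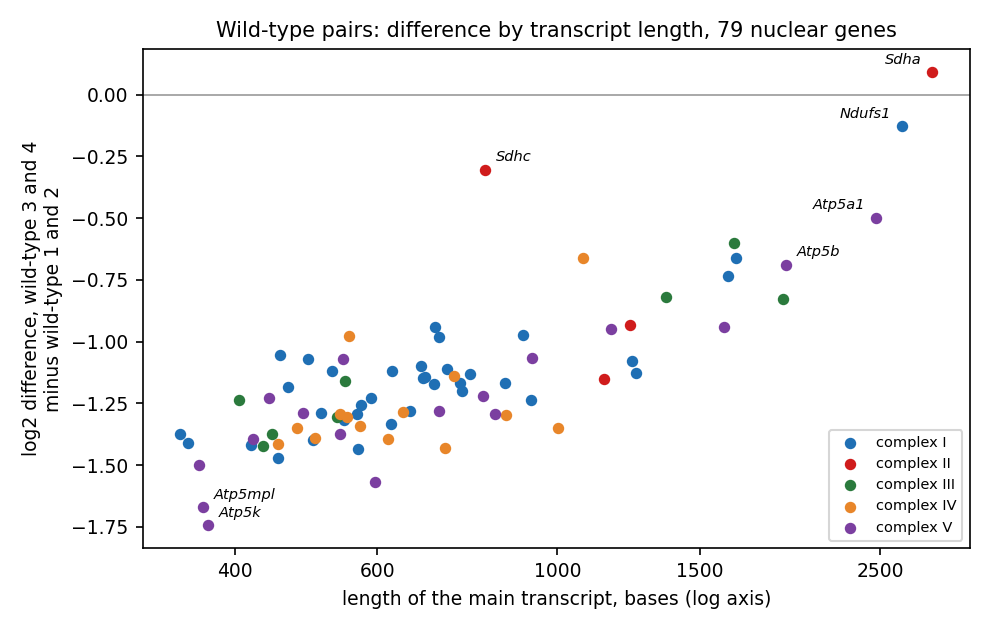
Log2 difference of each nuclear subunit gene, wild-type 3 and 4 minus wild-type 1 and 2, against the length of its main transcript in bases (log axis), coloured by complex. Atp5k lies lowest, at -1.74, and Sdha and Ndufs1, the longest, lie near 0.

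Levels between genes were compared in FPKM, which divides by transcript length. Over the 7 libraries, the median was 231 FPKM for the nuclear genes, 176 for complex I, 181 for complex II, 310 for complex III, 334 for complex IV and 363 for complex V. Atp5b was the highest nuclear gene at 950 FPKM and Cox4i2 the lowest measured, at 10.9 FPKM. mt-Cytb, at 1402 FPKM, was above every nuclear subunit, and mt-Co1 reached 874 FPKM. Some nuclear genes also share sequence, on either strand, with other annotated genes, and their counts are less certain. Among them were Atp5o (41.1% of its 50-base stretches), Atp5g2 (38.3%), Ndufs5 (21.7%) and Ndufb4 (18.3%). For Atp5o the gene that shared most, Gm15976 (13.5%), is an antisense gene on the same chromosome and not a copy elsewhere.

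Genes of mitochondrial ribosomal proteins and of complex I and IV assembly showed the same split by control pair. These lists were chosen with earlier results known, and the counts against wild-type 3 and 4 stand beside 22.1% of all genes called higher and 24.7% called lower. Against wild-type 3 and 4, 76 of 80 tested mitochondrial ribosomal protein genes, which translate the mitochondrial mRNAs, were called higher (median 0.94), as were 13 of 16 assembly factors of complex I and 19 of 23 of complex IV. Assembly factors of complexes II, III and V counted 4 of 4, 3 of 6 and 4 of 4. Against wild-type 1 and 2 the medians were -0.11 for the ribosomal proteins, -0.07 for complex I and 0.03 for complex IV factors, with 0 genes called. Among 26 genes of mitochondrial genome transcription and upkeep, 10 were called higher and 6 lower against wild-type 3 and 4, the latter near the share of all genes. Tfam, which packages mitochondrial DNA and starts its transcription, had 3448, 2938, 1990 and 1923 counts in the controls and 2879, 2862 and 3525 in the mutants and rose by 0.65. Polrmt, the mitochondrial RNA polymerase, had 784, 657, 1889 and 2021 against 712, 1021 and 607 counts and fell by 1.36, and Polg, the DNA polymerase, had 557, 613, 2780 and 2471 against 638, 908 and 466 and fell by 2.02. In both polymerase genes wild-type 3 and 4 were the highest libraries, the reverse of the subunit genes.

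Regulators of mitochondrial biogenesis also ran opposite to the subunits. Of 15 tested, 0 were called higher and 10 lower in the mutants than in wild-type 3 and 4, with a median of -0.62, and against wild-type 1 and 2 the median was 0.04 with 0 called. Against all controls the median was -0.35, with 14 of 15 lower and 0 called. In 4 of the 15, every mutant library was below every control library, beside 696 of all 16047 genes. Nrf1 and Gabpa, whose motifs were counted above, fell by 0.53 and 1.17 against wild-type 3 and 4. Of the PGC-1 family of coactivators, Ppargc1b had 416, 389, 637 and 634 counts against 185, 323 and 173 and fell by 1.54, and Pprc1 had 1009, 1074, 3059 and 2838 against 645, 1050 and 593 and fell by 2.00. The differences of Ppargc1b from all controls and from wild-type 1 and 2 did not pass (limma adjusted p 0.538 and 0.208). Tricarboxylic acid cycle genes were called higher in 9 of 14 and lower in 1 against wild-type 3 and 4, and glycolysis genes in 7 and 2 of 17. Genes of mitochondrial import and proteases counted 12 and 2 of 20, and those of mitochondrial stress and defence from reactive oxygen 7 and 0 of 10, beside the same 22.1% and 24.7% of all genes.

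The mobile carriers of electrons are cytochrome c and ubiquinone, and genes of their making were the one list with a call against wild-type 1 and 2. Coq8a, a kinase-like protein of ubiquinone synthesis, had 1971, 2195, 4895 and 4360 counts in the controls and 4165, 3636 and 4255 in the mutants. The mutants were above wild-type 1 and 2 and below wild-type 3 and 4. Coq8a rose by 0.95 (SE 0.14, limma adjusted p 0.0268) against wild-type 1 and 2 and differed by -0.20 (adjusted p 0.246) from wild-type 3 and 4. Of the 14 genes in the list, 5 were called higher and 0 lower against wild-type 3 and 4.

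Of the 9 pseudogenes or copies, 4 were tested and had medians of 0.56 against all controls, 0.01 against wild-type 1 and 2 and 1.18 against wild-type 3 and 4. Atp5l2-ps had 25.1, 23.9, 3.34 and 7.48 counts in the controls and 20.2, 15.2 and 21.8 in the mutants and rose by 1.71 against wild-type 3 and 4. It shares 73.4% of its 50-base stretches with other genes, first of all Atp5l. The 5 copies that were not tested, Ndufb4c, Ndufs6b, Atp5c1-ps, Atp5l-ps1 and Atp5l-ps2, had at most 14.2 normalized counts in any library.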

How the data were processed

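RNA from 7 sorted samples was isolated with a PicoPure kit, amplified with SMART-Seq v4 and made into unstranded libraries, per the labels' protocols. The submitters' processing notes name STAR 2.7.3a, HTSeq 0.6.1, DESeq2 1.12.4, Cufflinks 2.2.1, FastQC 0.11.7 and the build GRCm38, with neither role nor options. Signal values in the authors' gene table were normalized counts, of which 100% were whole multiples of 1 step per library within 0.01 reads, so read counts were recovered. FPKM values were deposited by the authors for 66660 transcripts and were summed per gene.

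Members, lists and control pairs were chosen with earlier results of these data known. A total of 16047 genes had 10 or more normalized counts in 3 or more libraries. They were tested by limma 3.58.1 (R 4.3.3, trended variance, two-sided) on log2 of the normalized count plus 1, with Benjamini-Hochberg adjustment over all of them and a threshold of 0.05. All controls entered a fit of 2 groups, and the pairs a fit of 3 groups over the same 7 libraries. Fold changes are log2 differences of group means on that scale and understate those of low genes. The fits were tested on simulated data that held no difference between the control pairs. That test therefore cannot show how the fits behave where the pairs differ, as they do here. Alternatives changed the pseudocount, filter, scaling, test (edgeR 4.0.16, DESeq2 1.42.0), table, libraries, covariates and weights. On recovered reads, edgeR called 0 genes against all controls and 24 against wild-type 1 and 2, and DESeq2 107 and 387.

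Positions, transcript lengths and the 50-base comparison came from GENCODE annotation of GRCm38, which matched 101 of 102 members. Named genes were the mitochondrial and core nuclear subunits, paralogues, the 3 nuclear members of largest difference in each comparison, the member nearest the median of its complex and up to 3 genes of each other list; Tfam, Nrf1, Gabpa, Gm28437 and Atp5l2-ps were added after their values were seen. Columns of other samples numbered 0. A core subunit gene that the naming rule covers is not reported here.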

Additional observations from a re-analysis of the deposited data

How the results depend on the processing

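No paired analysis was possible because the labels give no replicate number that both groups share; numbers given here in accession order pair nothing. Members called against all controls numbered 0, but 88 without wild-type 1 and 2 (beside 6828 of all genes), 84 in the shared title series alone (6010) and 79 with title series as a covariate (3597). Against wild-type 1 and 2 they numbered 0, and 1 by DESeq2; leaving out single libraries gave 0 to 2, the latter without mutant 2. The nuclear median against all controls, 0.55, was -0.076 without wild-type 3 and 4, 1.18 when wild-type 1 and 2 were left out and -0.053 with the length slope as a covariate; the mitochondrial median, 0.90, was 0.32 without wild-type 3 and 4 and 0.31 with the slope. The causes were not tested.

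Of 81 single-gene differences, 73 never changed sign. Against wild-type 3 and 4, Ndufs1 was -0.0086 with TMM, -0.025 scaled to the library total without mitochondrial genes, -0.018 in FPKM and -0.085 to 0.11 with single libraries left out; Atp5a1 was -0.0052 and Atp5b -0.12 under quantile normalization, which moved the median of all genes from -0.00 to 0.10. Against wild-type 1 and 2, leaving out single libraries gave -0.13 to 0.22 for mt-Nd1, -0.011 to 0.44 for mt-Nd2, -0.0019 to 0.59 for mt-Nd6 and -0.89 to 0.0095 for Cox7a1. Between the control pairs Sdha ranged from -0.017 to 0.20. Depth limited Cox7a1, Cox7b2, mt-Atp8 and the pseudogenes, which apart from Ndufs5-ps had under 30 counts in every library.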
